A study of Mus musculus with 12 samples.

Results

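The 9 genes described here encode digestive enzymes, or an enzyme cofactor, of the exocrine pancreas: Ctrb1, Clps, Cela1, Cela2a, Cela3b, Cpa1, Cpb1, Pnlip and Prss2. They are 9 of the 35275 genes in the deposited count table and were taken by gene name. The names were chosen on measured values, since Ctrb1 and Clps were already known to be high in the pups of one control dam, so the levels there are a description with no test. The libraries were made from total RNA of the ileum, the last stretch of the small intestine, of C57BL/6 mouse pups at postnatal day 14. Stressed dams had been restrained in a ventilated tube for 2 hours a day from gestational day 7 to 19, and control dams were left undisturbed in their home cages. Each of 3 stressed and 3 control dams gave 1 male and 1 female pup, so the 12 libraries form 4 groups of 3, and the pups of one dam are littermates. Libraries are named here by group and dam number, so control male 3 and control female 3 are the pups of control dam 3. A library held 16423523 to 22975526 reads counted to genes.

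Acinar cells of the pancreas make these enzymes, mostly as inactive zymogens, and secrete them through the pancreatic duct into the duodenum, where enteropeptidase activates trypsinogen and trypsin activates the rest. Transcription of the enzyme genes in acinar cells depends on PTF1, a complex of PTF1A, an E protein and RBPJL, together with factors such as BHLHA15 and NR5A2. In whole tissue, a change in the number of cells of a type cannot be told apart from a change in the RNA each cell holds.

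The label of the set holds only in part. Ctrb1, Clps, Cela1 and Cpb1 had reads in all 12 libraries, with 588, 4652, 1211 and 227 reads in total. Cela3b had 3 reads in total. Cela2a, Cpa1, Pnlip and Prss2 had none, in 243516156 reads, which allows up to 0.0123 reads per 1000000 for each. Ptf1a, which defines acinar identity, also had no read. The set is therefore called by its genes below.

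The promoters of 8 of the 9 genes were found in the RefSeq table for GRCm38.p6, and no entry was found for Clps. Those of Ctrb1 and Cela1, which had reads, and of Cpa1 and Prss2, which had none, are shown to set letters known from acinar promoters side by side. Each is the 250 bases before the start site, read 5′ to 3′ on the strand of the gene. Ctrb1 is at chr8:111691011-111691260 (minus strand), Cela1 at chr15:100687921-100688170 (minus strand), Cpa1 at chr6:30638968-30639217 (plus strand) and Prss2 at chr6:41521526-41521775 (plus strand). Capitals mark 4 motifs on either strand. A PTF1 site joins an E-box, searched as CACCTG, to a motif of RBPJ-type factors. The latter was searched as TTTCCC. Factors of the family of Gata4 and Gata6 bind a core that was searched as AGATAA and, in another common form, as TGATAA.
Ctrb1: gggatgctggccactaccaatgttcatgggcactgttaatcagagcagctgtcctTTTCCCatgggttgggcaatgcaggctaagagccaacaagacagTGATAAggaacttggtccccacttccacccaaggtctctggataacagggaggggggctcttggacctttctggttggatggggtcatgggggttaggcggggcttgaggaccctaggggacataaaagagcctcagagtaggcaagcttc
Cela1: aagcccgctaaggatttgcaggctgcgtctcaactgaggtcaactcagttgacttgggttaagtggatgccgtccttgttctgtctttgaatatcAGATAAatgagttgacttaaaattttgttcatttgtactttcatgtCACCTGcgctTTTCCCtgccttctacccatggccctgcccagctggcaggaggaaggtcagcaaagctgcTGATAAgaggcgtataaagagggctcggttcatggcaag
Cpa1: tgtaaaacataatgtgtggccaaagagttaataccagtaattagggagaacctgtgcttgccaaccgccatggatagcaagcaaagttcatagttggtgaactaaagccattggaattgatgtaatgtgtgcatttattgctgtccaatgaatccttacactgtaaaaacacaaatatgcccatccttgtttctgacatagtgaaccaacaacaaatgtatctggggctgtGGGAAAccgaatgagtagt
Prss2: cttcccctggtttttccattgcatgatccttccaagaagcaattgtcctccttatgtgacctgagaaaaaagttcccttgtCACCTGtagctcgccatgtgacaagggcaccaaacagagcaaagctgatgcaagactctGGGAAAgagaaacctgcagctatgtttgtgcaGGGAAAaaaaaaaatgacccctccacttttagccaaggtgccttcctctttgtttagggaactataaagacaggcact

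In the Cela1 promoter CACCTG began at position -109 and TTTCCC at -99, counted from the start site, with AGATAA at -155 and TGATAA at -39. CACCTG and TTTCCC began within 25 bases of each other in 0.758% of the 32851 promoters of the same length. Of the 8 promoters found, only that of Cela1 held this pair in the letters searched. Other forms of the E-box were not searched. CACCTG alone was in 17.2% of all promoters, TTTCCC in 21.9%, AGATAA in 9.99% and TGATAA in 7.94%. The Ctrb1 promoter held TTTCCC at -195 and TGATAA at -151 and no CACCTG. Its letters CAGCTG, an E-box form that was not searched, stand shortly before TTTCCC. The Cpa1 promoter held the reverse complement of TTTCCC at -19 and none of the other motifs, and Prss2 held CACCTG at -169 with reverse complements of TTTCCC at -110 and -78. Each of the 4 motifs occurred both in promoters of genes with reads in every library and in promoters of genes with at most 3 reads. A match is a description of the sequence and not a site of binding.

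Ctrb1 encodes chymotrypsinogen B, the zymogen of a serine protease that cuts after aromatic residues (ENSMUSG00000031957, GRCm38 chromosome 8, 111686510 to 111691010, minus strand). Levels within a gene are given as CPM (reads per 1000000 reads of the library, scaled between libraries by TMM). Ctrb1 stood at 0.0539, 0.297 and 17.4 CPM in control males 1 to 3 and at 0.247, 0.330 and 12.2 CPM in control females 1 to 3. It stood at 0.252, 0.245 and 0.0635 CPM in stressed males 1 to 3 and at 0.651, 0.484 and 0.138 CPM in stressed females 1 to 3. Both pups of control dam 3 were high and the other 10 libraries low, with 1 to 15 reads each. These 10 libraries held 60 Ctrb1 reads together, or 0.295 reads per 1000000, against 268 reads in control male 3 and 260 in control female 3. Relative to library size that is 51.8 times the pooled level in the male (exact 95% interval 39.0 to 69.7) and 39.3 times in the female (29.6 to 53.0). These intervals, like the limits given for counts of 0, cover counting error only and not the spread between pups. They are no test, since the set was chosen on the levels in these pups. No gene shared a 50-base stretch of transcript with Ctrb1 in the GENCODE M21 annotation.

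Clps encodes colipase, the cofactor that anchors pancreatic lipase to fat droplets in the presence of bile salts (ENSMUSG00000024225, chromosome 17, 28558210 to 28560766, minus strand). It stood at 6.10, 15.7 and 44.1 CPM in control males 1 to 3 and at 16.5, 16.6 and 33.8 CPM in control females 1 to 3. It stood at 13.2, 20.3 and 10.9 CPM in stressed males 1 to 3 and at 18.5, 19.5 and 16.1 CPM in stressed females 1 to 3. The pups of control dam 3 were again the highest, at 2.71 and 2.07 times the median of the other 10 libraries, which is 16.3 CPM. Clps was well above 0 in every library, unlike Pnlip, the lipase it serves, which had no read in any (ENSMUSG00000046008, chromosome 19, 58670365 to 58681786, plus strand). No 50-base stretch of the Pnlip transcript is shared with another gene.

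Cela1 encodes elastase 1, a serine protease (ENSMUSG00000023031, chromosome 15, 100674425 to 100687920, minus strand). It stood at 2.21, 5.44 and 7.22 CPM in control males 1 to 3 and at 4.97, 3.96 and 13.5 CPM in control females 1 to 3. It stood at 2.41, 5.89 and 1.59 CPM in stressed males 1 to 3 and at 4.95, 4.01 and 2.63 CPM in stressed females 1 to 3. The pups of control dam 3 were the highest 2 libraries here too, but with the female above the male, the reverse of Ctrb1 and Clps. The other elastase genes were all but absent. Cela2a (ENSMUSG00000058579, chromosome 4, 141814962 to 141826160, minus strand) had no read, and 25.6% of its 50-base stretches are shared with Ctrc. Cela3b (ENSMUSG00000023433, chromosome 4, 137420999 to 137430540, minus strand) had 1 read each in stressed male 2, stressed female 2 and stressed female 3, and none in the pups of control dam 3.

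Cpb1 encodes carboxypeptidase B1, which trims basic residues from the ends of peptides (ENSMUSG00000011463, chromosome 3, 20248264 to 20275733, minus strand). It stood at 0.378, 1.33 and 0.780 CPM in control males 1 to 3 and at 0.699, 0.943 and 1.22 CPM in control females 1 to 3. It stood at 1.16, 1.13 and 0.508 CPM in stressed males 1 to 3 and at 1.08, 0.881 and 0.875 CPM in stressed females 1 to 3. The pups of control dam 3 lay inside the range of the other 10 libraries. Cpa1, for carboxypeptidase A1 (ENSMUSG00000054446, chromosome 6, 30639218 to 30645363, plus strand), and Prss2, a trypsinogen (ENSMUSG00000057163, chromosome 6, 41521787 to 41525079, plus strand), had no read in any library. Cpa1 shares no 50-base stretch with another gene, and Prss2 shares 7.83% of its stretches. In the 2 pups of control dam 3 together, with 528 Ctrb1 reads, a count of 0 allows up to 0.0750 reads per 1000000 for each gene without reads.

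**Figure D1:**
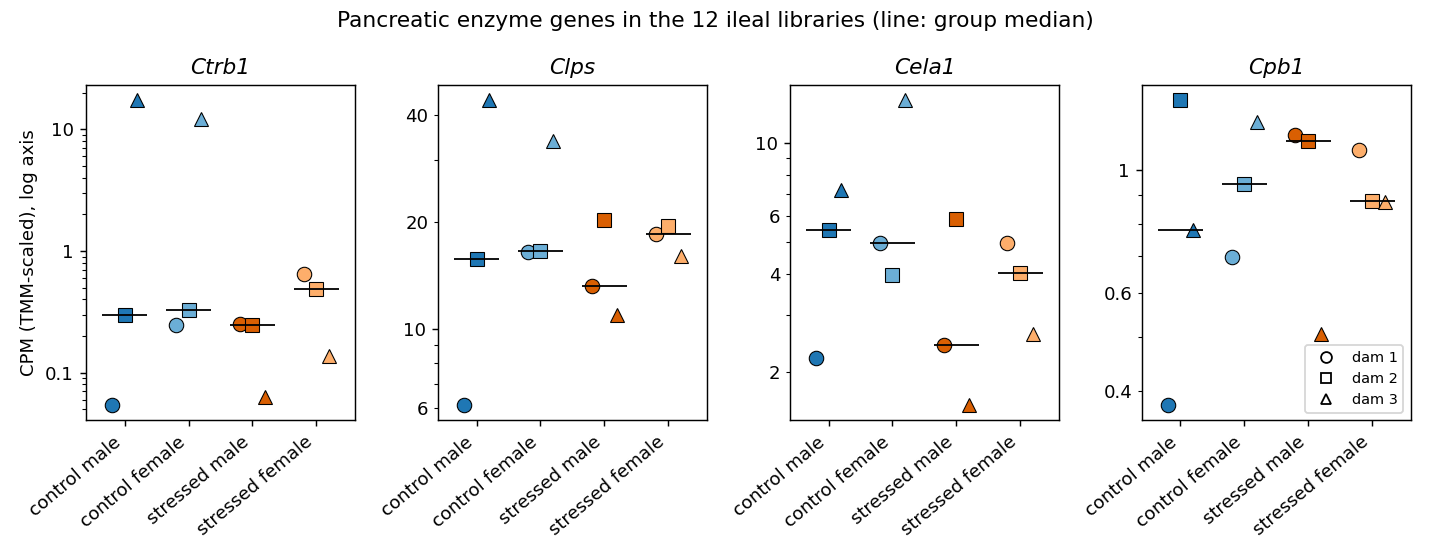
Each point is 1 library, the vertical axis is CPM on a log scale, colours give the group, marker shapes the dam and lines the median of a group. The triangles of control dam 3 stand at 17.4 and 12.2 CPM for Ctrb1, against at most 0.651 CPM elsewhere, and lie inside the spread of the other libraries for Cpb1.

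Between genes, levels were compared as FPKM, which divides by gene length. In the 10 libraries outside control dam 3 the median was 30.4 FPKM for Clps, 3.70 for Cela1, 0.344 for Cpb1 and 0.289 for Ctrb1. The ranges did not overlap between Clps (11.1 to 37.9 FPKM) and Cela1 (1.38 to 5.49), nor between Cela1 and Cpb1 (0.139 to 0.500), but Cpb1 and Ctrb1 (0.0607 to 0.774) overlapped. In control male 3 Ctrb1 was second, at 17.2 FPKM, after Clps at 70.3 and ahead of Cela1 at 5.73 and Cpb1 at 0.251. Control female 3 gave the same order, with 58.6 FPKM for Clps, 13.1 for Ctrb1, 11.7 for Cela1 and 0.427 for Cpb1.

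The genes did not keep one ratio across the libraries. Of the reads of the 9 genes, Ctrb1 took 25.05% in control male 3 and 20.0% in control female 3, and elsewhere 0.485% to 2.58%. There were 0.395 and 0.360 Ctrb1 reads per Clps read in these pups, against 0.00581 to 0.0351 elsewhere. Clps reads per Cela1 read came to 6.12 in control male 3 and 2.498 in control female 3, and to between 2.76 and 6.88 in the others. Clps reads per Cpb1 read were 56.6 and 27.8 in the pups of control dam 3, above the 11.4 to 23.6 of the other 10. Littermates differed as well, since control male 3 had 1.43 times the Ctrb1 level and 1.31 times the Clps level of control female 3 but 0.533 times its Cela1 level and 0.641 times its Cpb1 level.

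**Figure D2:**
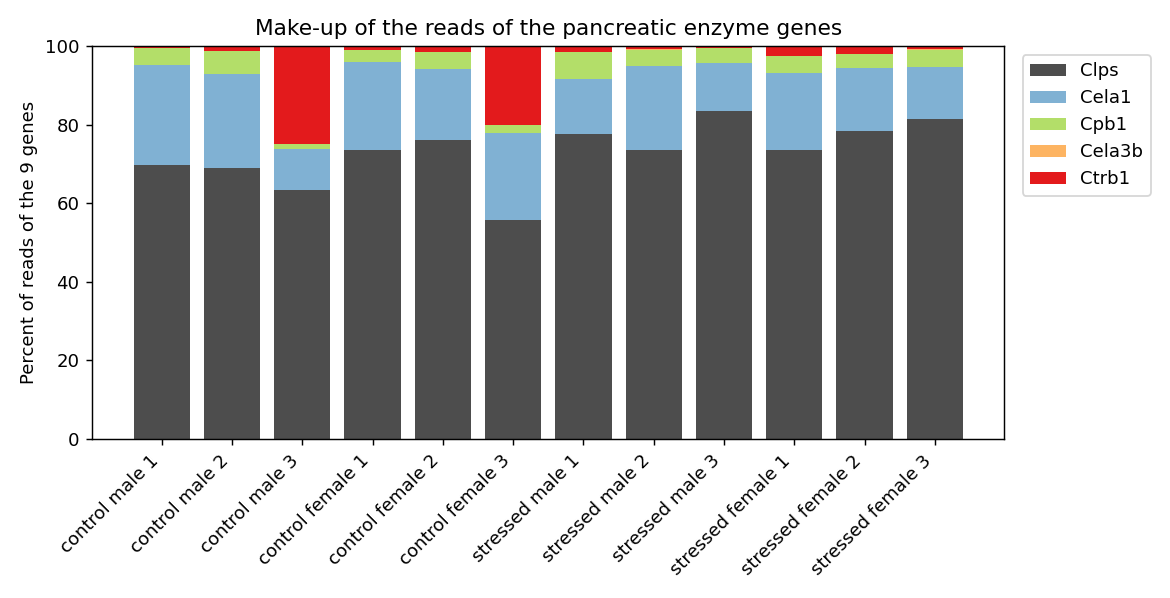
Each bar is 1 library, and its parts are the percent of the reads of the 9 genes that fell on each. Clps takes 55.7% to 83.5% of every bar, and Ctrb1 is visible as a large part only in control male 3 (25.05%) and control female 3 (20.0%).

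The comparison the study was designed for sets pups of stressed dams against pups of control dams. After the filter on low counts 4 of the 9 genes could be tested, Ctrb1, Clps, Cela1 and Cpb1, and Ctrb1 reached the filter in part through the libraries where it is high. It did not pass in the 6 male libraries alone. None of the 4 was called in any comparison, where a call is an adjusted p under 0.05 in edgeR's quasi-likelihood test. Over all genes 0% were called in males (0 of 16102), 0% in females (0 of 16102) and 0% over litters summed per dam (0 of 16749), with 1028, 48 and 228 genes at an unadjusted p under 0.05. The test of males against females called 0.0497% (8 of 16102). DESeq2 called 0, 0, 0 and 18 genes. Without stressed male 2 edgeR called 1 gene in males and 1384 between the sexes, none of them one of the 4. In both sexes the stressed and control ranges of each of the 4 genes overlapped. The share of all genes with such an overlap was not counted, so this is a description only.

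Ctrb1 averaged 5.92 ± 9.96 CPM (SD, n = 3) in control males and 0.187 ± 0.107 in stressed males. It averaged 4.25 ± 6.86 CPM (SD, n = 3) in control females and 0.424 ± 0.261 in stressed females. The log2 fold change, stressed minus control, was -4.87 ± 2.02 (SE) in males (edgeR adjusted p = 0.752) and -3.29 ± 1.77 in females (edgeR adjusted p = 1). Over litters it was -3.93 ± 1.63 (edgeR unadjusted p = 0.0459, adjusted p = 1). Since the set was chosen on control dam 3, these values were also taken without it. Without both pups of control dam 3 the Ctrb1 log2 fold change was 0.11 in males and 0.56 in females, and without that litter 0.41, so the direction rests on 1 dam.

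Clps averaged 22.0 ± 19.8 CPM (SD, n = 3) in control males, 14.8 ± 4.88 in stressed males, 22.3 ± 9.95 in control females and 18.0 ± 1.76 in stressed females. Its log2 fold change was -0.56 ± 0.55 (SE) in males (edgeR adjusted p = 0.839), -0.31 ± 0.54 in females and -0.42 ± 0.40 over litters (edgeR adjusted p = 1 in both). Without both pups of control dam 3 it was 0.44 in males and 0.12 in females, and without that litter 0.23. Its direction therefore turned as that of Ctrb1 did.

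Cela1 was the one of the 4 that stayed lower in stressed pups without control dam 3, by a small amount. It averaged 4.95 ± 2.54 CPM (SD, n = 3) in control males, 3.30 ± 2.28 in stressed males, 7.49 ± 5.26 in control females and 3.86 ± 1.17 in stressed females. The log2 fold change was -0.57 ± 0.59 (SE) in males (edgeR adjusted p = 0.849), -0.95 ± 0.58 in females and -0.83 ± 0.45 over litters (edgeR adjusted p = 1 in both). Without both pups of control dam 3 it was -0.21 in both sexes, and without that litter -0.23. Cpb1 differed least, with log2 fold changes of 0.17 ± 0.45 (SE) in males, -0.00 ± 0.44 in females and 0.05 ± 0.32 over litters (edgeR adjusted p = 0.948, 1 and 1).

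**Figure D3:**
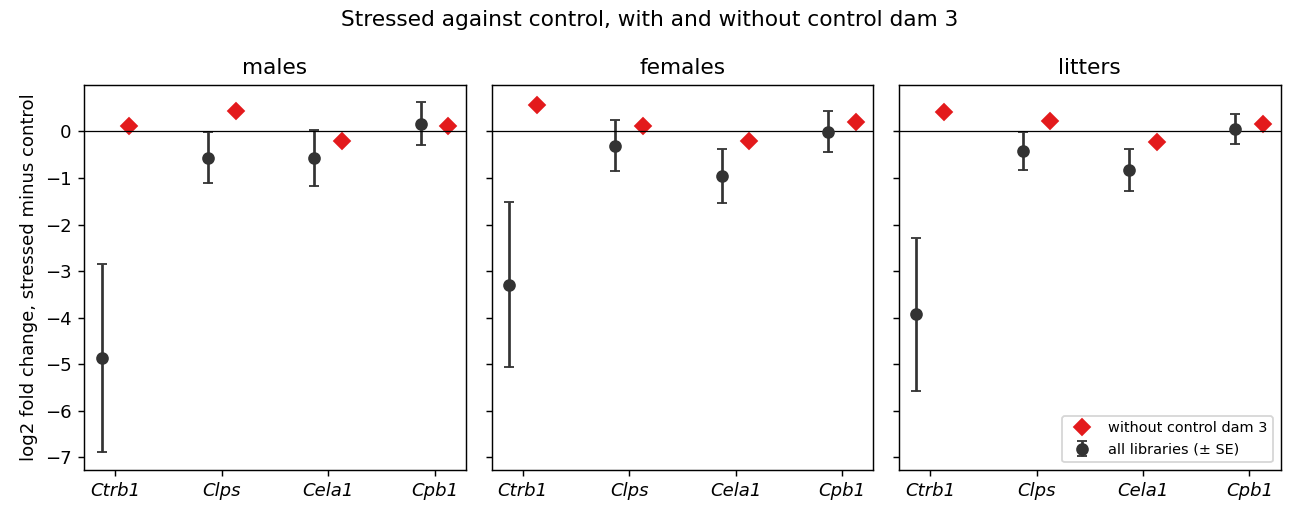
Black points are log2 fold changes, stressed minus control, with bars of 1 SE, in males, females and summed litters, and red diamonds are the same values without control dam 3. Ctrb1 moves from -4.87, -3.29 and -3.93 to 0.11, 0.56 and 0.41, and Clps from below 0 to above it.

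Males and females of the same litters were compared as well. Male minus female, the log2 fold change was -0.32 ± 1.35 (SE) for Ctrb1, -0.15 ± 0.39 for Clps, -0.41 ± 0.41 for Cela1 and -0.09 ± 0.31 for Cpb1, with edgeR adjusted p from 0.64 for Cela1 to 0.922 for Ctrb1. In the authors' deposited table, which has its own test of stressed against control pups, Ctrb1 had a log2 fold change of -0.19 with a p of 0.0210 and an adjusted p of 0.9996. In the authors' deposited table Cela1 had a log2 fold change of -0.32 with a p of 0.0434, Clps -0.19 with a p of 0.223 and Cpb1 0.04 with a p of 0.824, each with the same adjusted p. Within the sexes the authors' deposited table gives no p for Ctrb1, and for Cela1 a p of 0.289 in males and 0.0249 in females, with an adjusted p of 1.00 in both.

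Many other acinar genes were without reads. Of 33 other acinar genes listed for this comparison, 31 were in the table and 15 had no read in any library. With the 4 of the 9 that were at 0, this makes 19 of 40 acinar genes without a read, among them all 6 trypsin genes and all 6 pancreatic amylase genes of these lists. Over the whole count table, 11023 of 35275 genes had no read in any library. Most trypsin and amylase genes share sequence with close relatives, and all 50-base stretches of Amy2a2, Amy2a3 and Amy2a4 do, so reads dropped as ambiguous cannot be told apart from absence for those. Amy2b shares 40.2% of its stretches and Try10 40.8%, which leaves stretches where a read would have counted. Reg2, Cuzd1 and Serpini2, whose stretches are not shared, were also at 0. The 8 listed genes with a mean of at least 1 CPM were Spink3, Dmbt1, Zg16, Pnliprp2, Klk1, Rnase1, Reg1 and Pnliprp1.

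Several of these are also genes of the gut lining, and they did not move as one. Zg16, for a lectin of zymogen granules and of goblet cell mucus, reached 572 CPM in the male and 206 CPM in the female pup of control dam 3, while the other libraries lay between 0.324 and 8.29 CPM. Dmbt1, a mucosal glycoprotein gene, reached 500.4 and 202 CPM against 16.8 to 136 CPM. Rnase1 was less far apart, at 17.2 and 15.1 CPM against 3.99 to 13.3 CPM. Pnliprp2, a relative of pancreatic lipase, and Reg1 were beyond the others mainly in the male: Pnliprp2 at 86.5 and 37.1 CPM against 5.07 to 39.4, and Reg1 at 14.0 and 1.45 CPM against 0.174 to 1.43. Pnliprp1, another relative of the lipase, stood at 1.30 and 1.54 CPM against 0.805 to 1.29. Klk1, tissue kallikrein, stayed inside the range of the others, at 12.2 and 19.0 CPM against 1.94 to 24.8. Spink3, a trypsin inhibitor gene, was at 187 CPM in the male and 735 CPM in the female, against 55.9 to 629 CPM. Of this list 10 genes could be tested within each sex. In males 8 were below 0 and 2 above, the same counts held in females, and none was called. Over all genes tested, 7781 of 16102 were below 0 in males and 8287 of 16102 in females. The median log2 fold change of the 10 genes was -0.24 in males and -0.27 in females, against 0.01 and -0.00 over all genes tested. These counts and medians include control dam 3, where Zg16 and Dmbt1 were high, and were not taken without it.

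**Figure D4:**
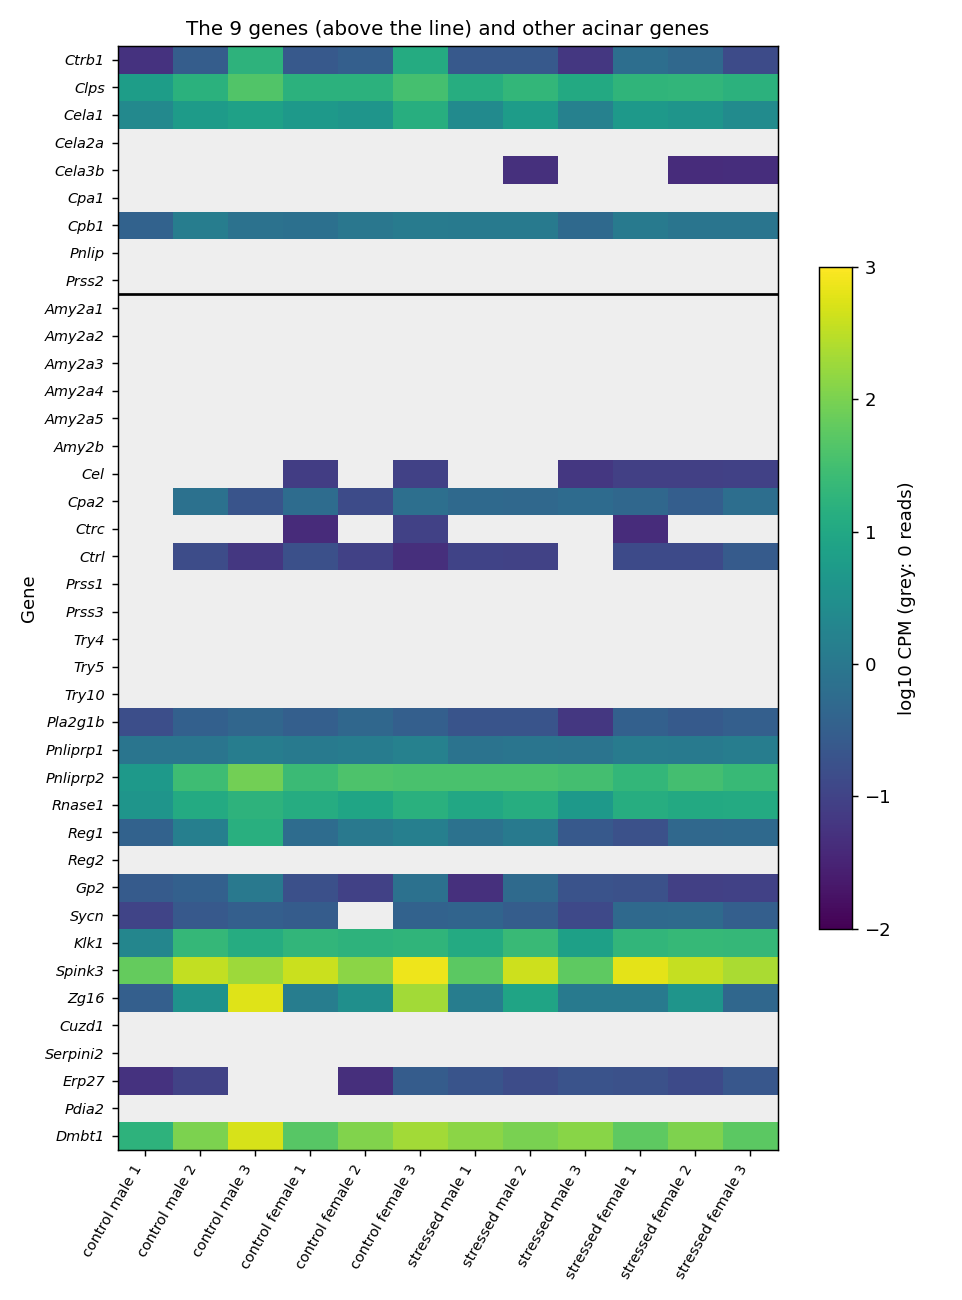
Rows are the 9 genes (above the line) and the 31 other acinar genes, columns the 12 libraries, and colour log10 CPM, with grey for 0 reads. The 19 grey rows are genes without a read in any library. Zg16 and Dmbt1 are brightest in control male 3 and control female 3, but Dmbt1 is also at 16.8 to 136 CPM elsewhere.

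Of 9 listed regulators of acinar genes, 6 had a mean of at least 1 CPM, and most of these are also made in the gut lining. Of the pancreatic parts of PTF1, Ptf1a had no read and Rbpjl had 12 reads over all libraries (mean 0.0495 CPM). Pdx1, a factor of the pancreas and duodenum, had 19 reads (mean 0.0780 CPM), and both genes are named here after their values were seen. Gata4, a factor of the upper small intestine, stood at 135 and 51.0 CPM in the pups of control dam 3 against 0.329 to 4.06 CPM. Bhlha15, a factor of secretory cells, stood at 9.36 and 8.71 CPM against 1.13 to 6.47 CPM. Cckar, a receptor for cholecystokinin, ran lower, at 2.21 and 3.04 CPM against 4.84 to 21.5 CPM. Nr5a2 was inside the range of the others, at 51.1 and 45.6 CPM against 32.8 to 63.9, and so was Xbp1, at 148 and 161 CPM against 122 to 199.5. Gata6 was at 138 and 97.5 CPM against 84.1 to 96.2. The 6 could be tested within each sex and none was called, with 3 above and 3 below 0 in males and 1 above and 5 below in females. All genes tested split into 8321 above and 7781 below 0 in males, and 7813 above and 8287 below in females.

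The summed lists of the upper small intestine and of Paneth cells were also highest in the pups of control dam 3. Their part in the levels of Ctrb1 and Clps was not tested. Of the 14 genes of the upper small intestine 8 were above the other 10 libraries in both pups. The list summed to 18800 and 8917 CPM there, against 2112 to 4133 CPM in the other 10 libraries. The share of all genes above or below the other 10 libraries was not counted. The counts of list genes given here and below therefore cannot be set against it. Lct, lactase, was at 5237 and 2316 CPM against 157 to 510.4, and Apoa4 at 8844 and 4390.0 CPM against 648 to 2521, while Slc40a1, the iron exporter, was at 863 and 1073 CPM against 690 to 1181. Of the 9 Paneth cell genes measured, 5 were above the others in both pups, and the list summed to 3965 and 4783 CPM, against 332 to 2794 CPM. Lyz1, lysozyme, was at 1316 and 807 CPM against 42.2 to 440.0, but the defensin genes Defa24 and Defa22 were beyond the others only in the female, at 1718 CPM against 109 to 1028 and at 785 CPM against 42.9 to 496.

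The lower small intestine genes did not move as one. The 11 in the table summed to 1731 and 2220 CPM in these pups and to 1419 to 2570 CPM in the others, with the abundant Cubn, Slc51a and Amn making up most of the sum in the pups of control dam 3. Yet 6 of the 11 were below all the other 10 libraries in control male 3, and 1 was above. In control female 3, 2 were below and 5 above. Slc6a14 and Pyy were below in both pups, and Slc51b was above in both. Named after their values were seen, Slc6a14, an amino acid transporter gene, had 0.130 CPM in the male and 6.37 CPM in the female, where the lowest of the others had 58.4. Fabp6, for the ileal bile acid binding protein, had 0.715 and 60.95 CPM, where the others spanned 29.8 to 607. Slc10a2, the ileal bile acid transporter, had 0.195 and 1.97 CPM, and the lowest of the others 1.67. Fgf15 was low in the male, at 24.7 CPM, and high in the female, at 185 CPM, where the others spanned 46.9 to 165. Their part in the levels of Ctrb1 and Clps was not tested.

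Genes of neighbouring organs were summed in the same way, and each sum is compared only between libraries. Ins1 and Ins2, which define pancreatic beta cells, had no read, and the 12 islet genes summed to 73.7 and 99.4 CPM against 60.6 to 104, mostly Gcg and Sst, which endocrine cells of the gut also make. The 8 pancreatic duct genes, of which Krt19 of the gut lining is the most abundant, summed to 915 and 728 CPM against 338 to 723. Stomach genes summed to 1.11 and 0.655 CPM against 0.247 to 0.824, salivary gland genes to 0.780 and 0.562 against 0.0461 to 0.687, and Brunner gland genes to 7.02 and 5.29 against 4.59 to 11.8. Liver genes summed to 63.5 and 140 CPM against 101 to 218 and mesothelium genes to 800.2 and 662 against 230 to 691. The mesothelium list also holds Krt19, at 729 and 576 CPM in these pups. Krt19 was the only 1 of the 7 mesothelium genes above the others in either pup. Genes that activate or inhibit proteases, Spink3 above all, summed to 206 and 736 CPM against 58.5 to 633.

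The genes nearest in pattern to the 4 detected genes were sought among 14470 genes with a mean of at least 1 CPM. Likeness was the root mean square difference, over the 12 libraries, between log2 CPM centred on the mean of each gene, so a small value means a like profile. Nearest to the average profile of Ctrb1, Clps, Cela1 and Cpb1 were Slc35f2 (0.277), Glod5 (0.282), Maob (0.291), Cxcl9 (0.299), Tm4sf5 (0.304), Bpnt1 (0.326), Gsdmc3 (0.332) and Gm8909 (0.333), where the median gene stood at 0.946. The average profile peaks in the pups of control dam 3, on which the set was chosen, so genes near it share that peak by selection. All 8 were above the other 10 libraries in both pups of control dam 3. Maob, monoamine oxidase B, for example, was at 543 and 498 CPM against 72.7 to 165 CPM. Over the 10 libraries outside control dam 3, 0 of these 8 genes were among the nearest 8.

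Taken one at a time, a step added after the data had been seen, Ctrb1, Clps and Cela1 had different neighbours. These too were picked over all 12 libraries, so a high level in the pups of control dam 3 can follow from the choice. Ctrb1 was nearest to Asah2 (0.698), the neutral ceramidase of the brush border, then Adora2b, Exoc3l4, Slc7a15 and Apol10a, against a median of 2.15. Asah2 stood at 1270.2 and 471 CPM in the pups of control dam 3 and at 26.2 to 55.3 CPM in the others. Clps lay closer to its neighbours, with Ddc (0.137), Ccl25 (0.173), Aadac (0.1796), Lgals2 (0.181) and Cldn15 (0.187) against a median of 0.727. Ddc, aromatic amino acid decarboxylase, stood at 73.2 and 56.8 CPM against 13.2 to 39.0, and Ccl25, a gut chemokine, at 349 and 247 CPM against 52.4 to 182. Cela1 was nearest to Slc51b (0.242), Il18, Sult1b1, Nts and Spns3, each of them, apart from Nts, above the other 10 libraries in both pups. Over the 10 libraries outside control dam 3, 0 of the 5 nearest genes of Ctrb1 were still among its nearest 5, and 1 of 5 for Clps (Ddc) and 1 of 5 for Cela1 (Nts). Between the 4 genes themselves, Clps and Cela1 differed by 0.465, Clps and Cpb1 by 0.573, Cela1 and Cpb1 by 0.641, and Ctrb1 from Clps by 1.56, from Cela1 by 1.57 and from Cpb1 by 2.02. Without the pups of control dam 3 Ctrb1 differed from Clps by 0.441, from Cela1 by 0.479 and from Cpb1 by 0.474. Ctrb1 had only 1 to 15 reads in each of these libraries, and the prior count of 2 flattens so low a profile. These smaller values are therefore not read as a shared profile.

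**Figure D5:**
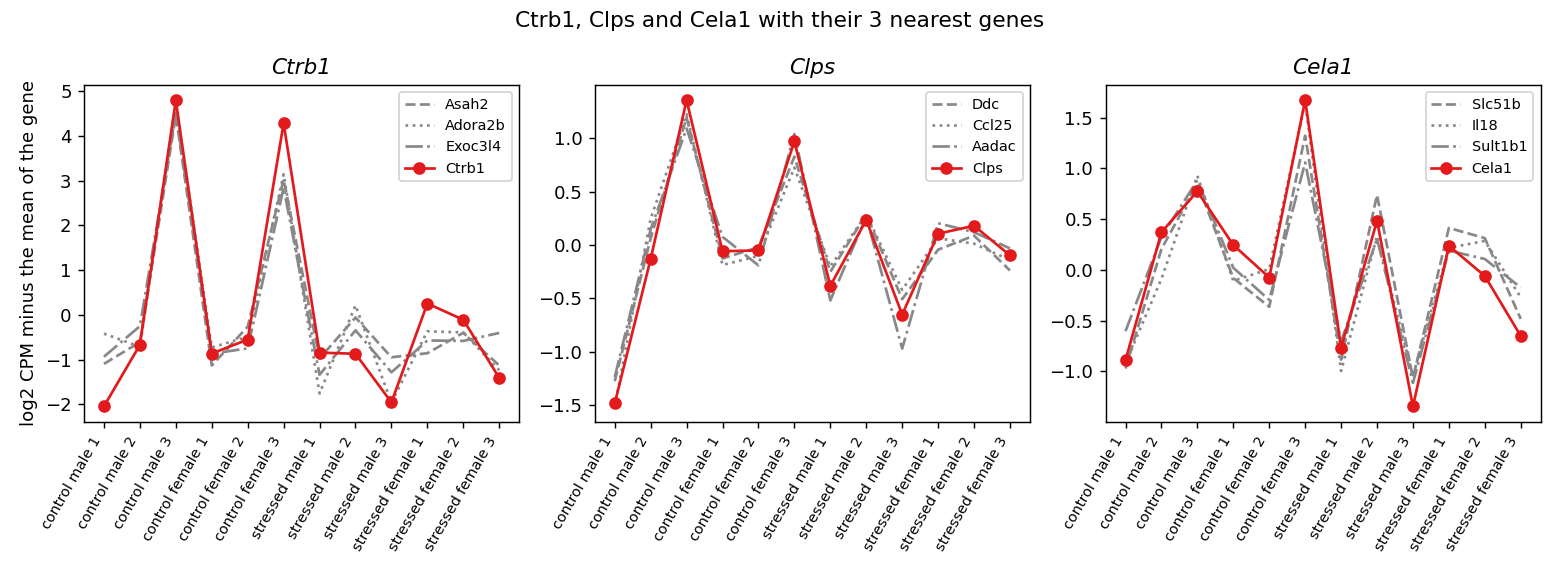
Each panel plots log2 CPM minus the mean of the gene over the 12 libraries for Ctrb1, Clps or Cela1 (red) and its 3 nearest genes (grey). Ctrb1 and its neighbours peak in control male 3 and control female 3, and Cela1 peaks in control female 3.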

How the data were processed

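Total RNA of 12 ilea was sequenced. Per the submitters' processing notes, the tools include TopHat, STAR 2.5, HTSeq 0.6.1, DESeq2 and edgeR 3.16.5, with builds GRCm38 and mm10; the annotation release and strand setting are not given in the sources used here. The authors deposited read counts and FPKM per gene, and a table of their own comparisons with log2 fold changes and p-values. The deposited FPKM equalled count over length and library total for all 240813 nonzero values within a relative tolerance of 1e-06.

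The 9 genes, the gene lists and the tests were chosen with earlier results of these data known. Counts were tested with edgeR 4.0.16 (R 4.3.3) quasi-likelihood after TMM scaling and filterByExpr, with Benjamini-Hochberg adjustment over all genes, in one fit of 4 groups (8 residual degrees of freedom) for each sex and for males against females. Littermates were also summed per dam, giving 3 against 3 litters. The SE is the log2 fold change over the square root of F. The p-values measure the spread between these pups or litters. Groups follow the labels; pups of one dam share it, and the comparison of the sexes in one fit does not use that.

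CPM is scaled by TMM; log2 CPM used a prior count of 2. Counts of 0 were given an upper limit of 3 reads, intervals a level of 95%, and no molecular identifiers are in the files. Transcript stretches of 50 bases were compared within GENCODE M21. Promoters came from RefSeq, 250 bases each. Lists covered other acinar genes, their regulators, islet, pancreatic duct, Brunner gland, upper and lower small intestine, Paneth cells, stomach, liver, salivary gland, mesothelium and protease activation. Named beside the 9 genes were acinar genes and regulators with a mean of at least 1 CPM, from other lists the 3 of highest mean, genes at 0, and the 8 genes nearest in pattern. Fits were tested on simulated data. Alternatives were DESeq2 1.42.0, limma 3.58.1 on log2(FPKM + 1) or log2(FPKM + 0.1), median-ratio scaling, no filter, each sex alone, a replicate block, and leaving out libraries. Dam numbers were not taken to pair stressed with control pups.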

Additional observations from a re-analysis of the deposited data

How the results depend on the processing

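No alternative gave any of the 4 tested genes an adjusted p under 0.05, although DESeq2 gave Ctrb1 no adjusted p, and Ctrb1 could not be fitted in the 6 male libraries alone. The number of genes called in males was 0 to 1 when single libraries were left out, and 0 in females and over litters under all alternatives run. Between the sexes it was 18 with DESeq2 and 8 to 1384 with single libraries left out, the 1384 without stressed male 2. Ctrb1 fell under limma on log2(FPKM + 1) by 1.29 in males, 0.99 in females and 1.14 over litters, on that scale, which understates low genes.

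Without both pups of control dam 3 the log2 fold change turned to 0.11 for Ctrb1 and 0.44 for Clps in males, to 0.56 for Ctrb1, 0.12 for Clps and 0.21 for Cpb1 in females, and to 0.0397 for Cpb1 between the sexes. With single libraries or litters left out, Ctrb1 ranged from -5.47 to 0.11 in males, -3.89 to 0.57 in females, -4.51 to 0.41 over litters and -2.81 to 1.60 between the sexes. Clps ranged from -1.01 to 0.44, -0.52 to 0.12, -0.71 to 0.23 and -0.65 to 0.0684 in the same order. Cpb1 ranged from -0.18 to 0.70, -0.22 to 0.21, -0.21 to 0.25 and -0.36 to 0.0838. The Cpb1 value in females was also above 0 with limma, at 0.0118 on log2(FPKM + 1) and 0.0411 on log2(FPKM + 0.1). Cela1 stayed below 0 in each of these. Where an arm kept 2 pups or 2 litters, the spread was pooled over the groups.

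With the dam number as a replicate block, or the litter for the sexes, 0, 0, 0 and 7 genes were called, and no call of the 4 genes changed. Ctrb1 was then at -3.11 in males and -1.14 in females, and at -1.77 over litters, and Cpb1 in females turned to 0.00476. The correlation of same-numbered stressed and control libraries ran from -0.329 to 0.306, so the numbers were not taken as pairs. Ctrb1 rests on 1 to 15 reads in each of 10 libraries, which limits the precision of its values there.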

Other observations

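The low end of the 4 detected genes also fell on particular libraries. Control male 1 and stressed male 3 were the lowest 2 of the 12 for each of Ctrb1 (0.0539 and 0.0635 CPM), Clps (6.10 and 10.9 CPM), Cela1 (2.21 and 1.59 CPM) and Cpb1 (0.378 and 0.508 CPM). The same 2 libraries had the lowest sums of the Paneth cell genes, 332 and 615 CPM, and, for the other acinar genes, 96.1 and 234 CPM, also the lowest 2. The same held for the pancreatic duct genes, at 338 and 616 CPM, and the mesothelium genes, at 230 and 460 CPM. Krt19 of the gut lining is the most abundant gene of both these lists. The 2 libraries belong to a control and a stressed dam. The part of Paneth cell content, or of other cells of the gut lining, in these values was not tested.

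In the other direction, the size of the male over the female pup of control dam 3 varied among genes above the other 10 libraries in both. It was 1.43 times for Ctrb1, 1.31 times for Clps and 0.533 times for Cela1. It was 1.18 times for Mmp7, 1.51 times for Gip, 1.63 times for Lyz1, 1.63 times for Ang4 and 1.71 times for Itln1. It was 2.26 times for Lct, 2.62 times for Rbp2, 2.64 times for Gata4 and 2.77 times for Zg16. It reached 8.34 times for Fabp1 and 9.68 times for Reg1. Fabp1, of the upper small intestine list, stood at 1403 and 168 CPM in these pups against 0.151 to 0.638 CPM in the others. These genes were named after their values were seen.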
